A study of Mus musculus with 8 samples.

Results

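The sites described here are intervals of Bcl11b ChIP-seq signal that lie deep inside very long genes of mouse thymocytes. An interval was taken when its midpoint fell inside the body of a protein-coding gene of 400 kb or longer (RefSeq, on the mm10 coordinates of GRCm38.p6), on chromosomes 1 to 19, and more than 5 kb from both ends of that gene. There were 1240 such intervals among the 63098 of the normalized table, each 201 bp wide, and they lay in 147 genes. ChIP used a rabbit anti-Bcl11b antibody, and 3 libraries of Bcl11b +/N440K thymocytes (N440K) were compared with 3 libraries of Bcl11b +/+ thymocytes (WT). N440K names an amino acid exchange in the Bcl11b protein, and these thymocytes keep 1 wild-type allele. Which of the proteins the antibody binds, and with what strength, is not stated in the labels, nor are the age, sex and strain of the mice. The thymocytes were fresh and, as far as the labels say, unsorted, so a change in the mix of thymocyte stages and a change in binding per cell cannot be told apart. ChIP counts do not measure expression, and the labelled cell type was not checked against markers. The labels do not say whether replicates came from separate animals, so p-values measure the spread between libraries and that spread may be technical.

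Bcl11b is a zinc finger protein that binds DNA and recruits chromatin-modifying complexes, and T cell precursors depend on it to commit to their lineage. Very long genes owe their length mostly to introns, and many of them encode adhesion molecules, synaptic scaffolds and ion channels of neurons, while a smaller number encode regulators and signalling enzymes that lymphocytes use. A site in the middle of such a gene is far from that gene's main start and can be an enhancer, an internal start or a site with no known target. The annotation used here gives no exons, so exonic and intronic intervals were not separated.

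Counts over the tested intervals totalled 1656164 to 1925619 in the N440K libraries and 1609762 to 2400250 in the WT libraries. Values are CPM (counts in an interval relative to the library total over intervals, which the authors scaled so that the bulk of intervals is centred between libraries), so a general change in binding cannot be measured. The input libraries were not analysed here.

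A few of the intervals lay at annotated internal starts, where sequence was at hand. Of the 1240, 15 overlapped the start window of a transcript of their own host gene and 11 that of another gene nested in it, a window being 250 bases before to 50 after a RefSeq start. A window each from 3 host genes described further on is printed from 5′ to 3′ on the strand of the gene (RefSeq, GRCm38.p6), with the bases covered by the interval in capitals. Foxp1 encodes a forkhead factor that keeps naive T cells quiescent, Nav2 a neuron navigator protein that binds microtubules, and Pde10a a phosphodiesterase that degrades cyclic AMP and cyclic GMP. For Foxp1 the window shown is the one of 2 with more covered bases, chr6:99266466-99266765 on the minus strand with 107 covered bases, the Nav2 window chr7:49245939-49246238 on the plus strand with 201, and the Pde10a window chr17:8801495-8801794 on the plus strand with 81.
Foxp1 internal start: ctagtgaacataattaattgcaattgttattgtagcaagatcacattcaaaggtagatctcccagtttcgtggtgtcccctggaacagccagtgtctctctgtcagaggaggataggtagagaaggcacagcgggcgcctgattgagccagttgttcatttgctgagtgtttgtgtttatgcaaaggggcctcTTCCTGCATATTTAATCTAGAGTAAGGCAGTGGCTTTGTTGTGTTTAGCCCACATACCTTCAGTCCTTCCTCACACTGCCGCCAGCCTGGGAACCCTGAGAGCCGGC
Nav2 internal start: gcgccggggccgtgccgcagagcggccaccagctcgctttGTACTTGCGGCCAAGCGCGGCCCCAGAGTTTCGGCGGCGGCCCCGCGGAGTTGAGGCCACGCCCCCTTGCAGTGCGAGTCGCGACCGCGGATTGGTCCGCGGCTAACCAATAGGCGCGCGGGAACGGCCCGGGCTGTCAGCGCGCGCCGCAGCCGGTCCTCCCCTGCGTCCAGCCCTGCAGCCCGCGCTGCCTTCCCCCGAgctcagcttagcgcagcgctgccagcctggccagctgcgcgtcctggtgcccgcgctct
Pde10a internal start: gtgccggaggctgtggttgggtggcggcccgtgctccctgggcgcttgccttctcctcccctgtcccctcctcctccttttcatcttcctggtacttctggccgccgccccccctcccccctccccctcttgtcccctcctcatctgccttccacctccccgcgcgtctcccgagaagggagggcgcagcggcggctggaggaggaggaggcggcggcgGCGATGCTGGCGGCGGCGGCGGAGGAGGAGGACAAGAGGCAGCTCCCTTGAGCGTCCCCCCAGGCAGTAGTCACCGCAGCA
The interval at this Foxp1 window had 9.06 ± 1.51 CPM in N440K and 8.72 ± 1.13 CPM in WT libraries, that at Nav2 14.7 ± 2.37 CPM in N440K and 15.6 ± 5.44 CPM in WT, and that at Pde10a 10.1 ± 1.27 CPM in N440K and 16.3 ± 4.16 CPM in WT (SD, n = 3 each). The interval at the other Foxp1 window, chr6:99028249-99028548, which covers 10 of its bases, had 14.5 ± 2.78 CPM in N440K and 21 ± 2.86 CPM in WT libraries (log2 fold change -0.51 ± 0.23, SE; edgeR adjusted p = 0.311). Of the 26 intervals at a start window, edgeR, DESeq2 and limma voom called 0, and 2 of the 15 at a host gene's own start had an unadjusted edgeR p under 0.05. With 1.14% of all tested intervals called by edgeR, a count of 0 among 26 says little about these intervals. A Runx word (TGTGGT or its reverse ACCACA) stood in 1 of the 25 windows that such an interval overlapped, against 16.8% of all 32851 windows of the same 300 bases. An Ets word (AGGAAG or CTTCCT) stood in 11 of the 25 windows, against 35.4% of all windows. These matches describe the windows and show no binding by either family.

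Tested Bcl11b intervals, those that passed the authors' filter on low counts, were sparse inside very long genes. Genes of 400 kb or longer held 5.43 tested intervals per Mb of body more than 5 kb from their ends, against 19.1 in genes of 200 to 400 kb, 29.3 in genes of 100 to 200 kb, 31.9 in genes of 50 to 100 kb and 33.6 in shorter genes. Of the 338 coding genes of 400 kb or longer, 191 held no tested interval. Occupied genes differed widely. The median gene with any held 5, 29 genes held 1, and 19 genes with 20 or more held 566 of the 1240 (45.6%). Foxp1 held the most, 69 over 597 kb, followed by the phosphodiesterase gene Pde4d with 41, the nuclear factor I gene Nfia with 34, the oxidoreductase gene Wwox with 33 and the sorting nexin gene Snx29 with 30. Arhgap26, Cacna1d, which encodes an L-type calcium channel, and Maml3, which encodes a Notch coactivator, held 29 each. Neighbouring intervals of a gene were often close, with a median gap of 6.85 kb between midpoints, and 29.0% of neighbouring pairs lay within 1 kb. Of the 1023 intervals whose gene had a strand in the table of starts, 29.1% lay in the section of the gene nearest its start, 28.4% in the middle and 42.4% in the section nearest its far end, the 3 sections being of equal length.

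**Figure D1:**
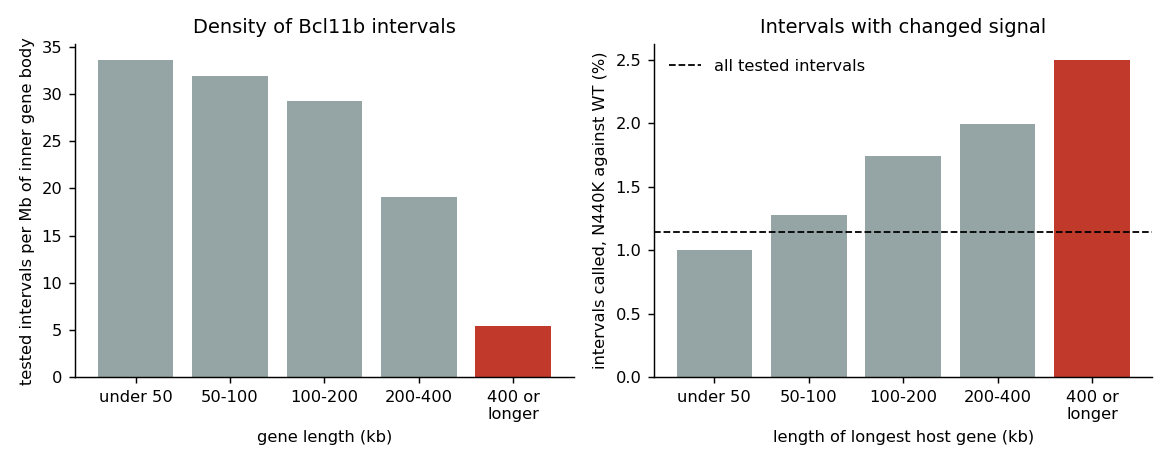
Left, tested Bcl11b intervals per Mb of gene body more than 5 kb from the ends, by gene length class. Right, percent of such intervals called different between N440K and WT, by length of the longest host gene; the dashed line is the 1.14% of all 63098 tested intervals. The class of 400 kb or longer (red) is the lowest on the left, with 5.43 per Mb, and the highest on the right, with 2.5%.

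The intervals were weak. Their median level over the 6 libraries was 9.06 CPM, against 9.47 CPM for intervals inside genes of 200 to 400 kb, 10.03 CPM inside all genes under 400 kb and 11.8 CPM over all tested intervals, and 177 of them (14.3%) fell in the strongest quartile of all intervals. Many weak ones were not tested at all. Among all counted intervals 2555 met the position rule, of which 48.5% passed the authors' filter on low counts, against 67.3% of all 93708. The strongest lay in Syne1, the gene of the nuclear envelope protein nesprin-1, at chr10:5384202-5384402. It had 120.2, 111.0 and 122.8 CPM in the N440K libraries and 107.8, 105.8 and 115.0 CPM in the WT libraries. The groups overlapped, and the log2 fold change of 0.11 ± 0.10 (SE) did not pass (edgeR adjusted p = 0.718). Next came an interval of Nfia at chr4:97751211-97751411, within 0.664 kb of the end of a nested gene, with 91.9, 94.6 and 88.5 CPM in N440K and 70.0, 77.0 and 85.8 CPM in WT libraries. All 3 N440K values were above all WT values, but the test did not pass (log2 fold change 0.23 ± 0.11, SE; edgeR adjusted p = 0.381). The others of the 5 strongest lay in Pde4d, in Rora, which encodes a nuclear receptor of innate lymphoid cells, and in Psd3, which encodes an exchange factor for Arf GTPases. They averaged 71.8, 62.9 and 63.3 CPM in N440K libraries and 74.6, 72.1 and 71.5 CPM in WT libraries, in that order, and their groups overlapped. In the Psd3 interval N440K replicate 2 stood low, with 41.5 CPM against 78.1 and 70.3 CPM in the other N440K libraries.

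Between the genotypes, 31 of the 1240 intervals passed the test (2.5%), 17 higher and 14 lower in N440K, and they lay in 22 genes. The test was edgeR's quasi-likelihood test over the whole table adjusted by Benjamini-Hochberg, with 0.05 as the threshold. Over all 63098 intervals it called 1.14%, with 0.46% higher and 0.681% lower. The share called was larger the longer the host gene, at 1.01%, 1.28%, 1.75% and 1.99% for intervals whose longest host gene was under 50 kb, 50 to 100, 100 to 200 and 200 to 400 kb. The difference between these shares was not tested, since neighbouring intervals are not independent. By quartile of level over the whole table, in order of rising level, 3.28%, 2.05%, 2.66% and 1.13% of the intervals in very long genes were called, against 1.01%, 1.17%, 1.18% and 1.13% of other intervals. N440K and WT libraries were apart at 255 intervals (20.6%), against 17.3% of all tested, and at all 31 that were called. N440K was higher at 101 and lower at 154 of the 1240 intervals. Over the whole table it was higher at 5264 and lower at 5648 of the 63098 (8.34% and 8.95%). The 101 of 1240 is close to the share over the whole table. Called intervals were weak, with a median of 7.71 CPM, and the median fold was 3.08 among those higher and 3.12 among those lower in N440K, against 2.14 and 2.54 among all called intervals of the table. Some had values near 0 in 1 genotype and passed the filter on low counts through the other. Large folds and calls among weak intervals may in part be set by that selection, which was not tested. Of the 31, 13 had another called interval within 25 kb, and in each case the direction was the same. They lay in Cdh13, Cacna1c, Cacna1e, Glis3 and Dnm3, some less than 1 kb apart, so a shared direction is no separate support for the calls. The same count over all called intervals of the table was not made. DESeq2 called 5 (background 0.0951%) and limma voom 15 (background 0.504%). Leaving out N440K replicate 1 left 16 calls and leaving out N440K replicate 3 left 18. Of the 31, 10 were called in all 6 fits that left out 1 library, and all 31 kept their direction in each.

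Most of the intervals showed no detectable change. Their median log2 fold change was -0.07, against 0.00 over all tested intervals, and 544 of 1240 (43.9%) were positive, against 50.5% overall. In the weakest quartile the median was -0.11 for intervals in very long genes and -0.08 for other intervals. In simulated data the test recovered 22 of 50 intervals changed 2-fold and 5 of 50 changed 1.5-fold, so changes of this size were often below what 3 libraries a group can show. The changed intervals were drawn from all tested intervals, and recovery among the weaker ones in very long genes was not measured.

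**Figure D2:**
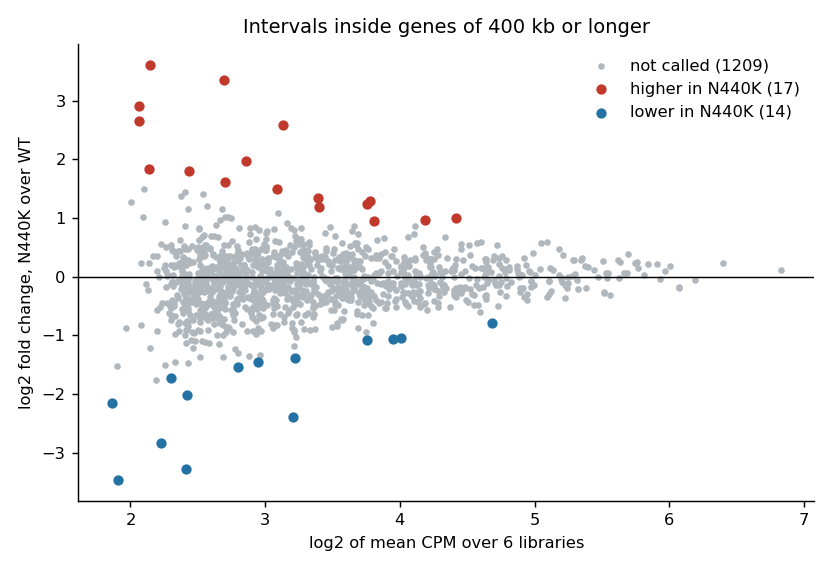
Log2 fold change (N440K over WT) of the 1240 intervals against the log2 of their mean CPM over 6 libraries. Each point is 1 interval; red points were called higher (17), blue points lower (14) and grey points were not called. The called intervals sit mostly at the weak end, where their folds reach 12.2.

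The largest gain lay in Cdh13, the gene of T-cadherin, a cadherin that is anchored in the membrane by a lipid. It spans 1185 kb of chromosome 8 and held 4 of the intervals, all called higher in N440K. The interval at chr8:118589965-118590165 had 12.2, 9.15 and 14.1 CPM in the N440K libraries and 1.24, 0.412 and 1.72 CPM in the WT libraries. The interval at chr8:118603389-118603589 had 9.97, 6.10 and 8.85 CPM in N440K and 0, 1.24 and 0.429 CPM in WT. The interval at chr8:118612511-118612711 had 15.0, 9.15 and 21.3 CPM in N440K and 1.24, 2.88 and 3.00 CPM in WT, and that at chr8:118599848-118600048 had 7.75, 7.93 and 6.25 CPM in N440K and 0.620, 0.823 and 1.72 CPM in WT. At each of the 4 every N440K library stood at 3 or more times the highest WT library, and the WT values were a few reads. The log2 fold changes were 3.36 ± 0.47, 3.61 ± 0.61, 2.59 ± 0.38 and 2.66 ± 0.55 (SE) in that order, with edgeR adjusted p of 8.52e-06, 0.00023, 2.28e-05 and 0.00477. The second of these was a 12.2-fold difference that became 26.3-fold without WT replicate 2. DESeq2 and limma voom did not call the interval at 118599848. Summed over the 4, Cdh13 had 44.9, 32.3 and 50.5 CPM in N440K and 3.10, 5.35 and 6.87 CPM in WT libraries, a fold of 8.05 (log2 3.01 ± 0.25, SE; edgeR adjusted p = 2.17e-09).

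The gain covered a long stretch of Cdh13. The count table held 18 intervals more than 5 kb inside the gene, spread over 419 kb, of which 14 had been filtered out for low counts. All 18 had a positive log2 fold change, with values of 1.65 to 4.74 and a median of 2.61, and 14 were called higher when no filter was applied, a fit that called 0.941% of all intervals. Together they held 259, 136 and 290 counts in the N440K libraries and 36, 36 and 51 counts in the WT libraries. The 4 that passed the filter on low counts did so through the N440K libraries, and whether the others were listed through N440K alone was not tested, so the common sign may in part be set by how intervals were selected. Neighbouring intervals were mixed in sign. Within 1000 kb of the lower-coordinate end 36 of 67 intervals were positive, with a median of 0.04, and the nearest lay 338 kb from the gene. Within 1000 kb of the other end 46 of 141 were positive, with a median of -0.20, and 4 were called. No interval lay in the 338 kb next to the lower-coordinate end, so how far the gain reaches on that side was not measured. This count over the whole stretch was made after the values of the 4 intervals had been seen.

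Other gains lay in Dnm3, Ctnnd2, Cacna1c, Gabrb1, Oxr1 and Pard3. In Dnm3, which encodes a dynamin GTPase, the interval at chr1:162282059-162282259 had 13.8, 9.76 and 10.4 CPM in N440K and 5.58, 1.65 and 2.15 CPM in WT libraries. The groups were apart, with WT replicate 1 the closest to N440K, and the log2 fold change was 1.97 ± 0.40 (SE; edgeR adjusted p = 0.00326). In Ctnnd2, the delta-catenin gene, the interval at chr15:30975029-30975229 had 8.31, 8.54 and 5.73 CPM in N440K and 0, 0.412 and 2.15 CPM in WT libraries, a 7.52-fold difference (edgeR adjusted p = 0.00346). It became 24.1-fold without WT replicate 3, the highest WT library, and the interval passed the filter on low counts through the N440K libraries. In Cacna1c, which encodes the pore of an L-type calcium channel, 3 intervals within about 1 kb of one another were called, and the one with the smallest p, at chr6:118984367-118984567, had 22.7, 14.0 and 21.9 CPM in N440K and 8.05, 11.1 and 4.72 CPM in WT libraries. N440K replicate 2 was the lowest of its group and still above every WT library (log2 fold change 1.29 ± 0.27, SE; edgeR adjusted p = 0.0058). The call was lost without N440K replicate 1 (adjusted p = 0.068) and without WT replicate 3 (0.0885). In Gabrb1, which encodes a subunit of the GABA-A receptor, the single interval, at chr5:71903509-71903709, had 18.8, 13.4 and 24.5 CPM in N440K and 8.67, 7.41 and 8.16 CPM in WT libraries. This 2.37-fold difference passed (edgeR adjusted p = 0.0065), and not without N440K replicate 3 (0.124). Intervals in Oxr1, an oxidation resistance gene, at chr15:41830018-41830218 and in Pard3, the gene of a polarity scaffold, at chr8:127447241-127447441 were 1.99-fold and 2.81-fold higher (edgeR adjusted p = 0.0105 and 0.012). Oxr1 averaged 28.1 ± 2.20 CPM in N440K and 14.6 ± 5.63 CPM in WT, and Pard3 12.5 ± 2.01 CPM in N440K and 4.51 ± 1.34 CPM in WT (SD, n = 3 each). The Oxr1 call was lost without N440K replicate 1 (adjusted p = 0.0714) or WT replicate 2 (0.162), and the Pard3 call without N440K replicate 1 (0.099) or WT replicate 3 (0.0984). DESeq2 called none of these 6 outside Cdh13, and limma voom called each of them. The Dnm3 and Pard3 intervals, like that of Ctnnd2, passed the filter on low counts through the N440K libraries.

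The losses with the smallest p lay in Glis3, Sox6, Cacna1e and Zfhx3. In Glis3, which encodes a zinc finger factor of pancreas and thyroid, the interval at chr19:28298747-28298947 had 2.21, 2.44 and 4.16 CPM in N440K and 11.8, 16.5 and 18.5 CPM in WT libraries. Every WT value was more than 2 times every N440K value, and the log2 fold change was -2.39 ± 0.35 (SE; edgeR adjusted p = 2.8e-05). In Sox6, the gene of an HMG box factor of cartilage and red cell development, the interval at chr7:115951750-115951950 had 1.66, 0 and 1.04 CPM in N440K and 12.4, 6.18 and 10.7 CPM in WT libraries. The groups were far apart, and the difference was 9.63-fold (edgeR adjusted p = 0.000238) or 15.3-fold without N440K replicate 1. In Zfhx3, the gene of a zinc finger homeobox factor, the interval at chr8:108929313-108929513 had 0, 0.610 and 1.04 CPM in N440K and 8.67, 5.35 and 6.87 CPM in WT libraries. It was 11-fold lower in N440K (edgeR adjusted p = 0.00214), and 19.4-fold lower without N440K replicate 3. Cacna1e, which encodes an R-type calcium channel, held a called pair of neighbouring intervals. The one at chr1:154816779-154816979 had 1.66, 0.610 and 1.04 CPM in N440K and 8.05, 10.7 and 6.01 CPM in WT libraries, and the one at chr1:154817030-154817230 had 2.77, 2.44 and 1.04 CPM in N440K and 9.91, 9.47 and 6.44 CPM in WT. The groups were apart at both (7.08-fold and 4.05-fold lower; edgeR adjusted p = 0.00157 and 0.0119). The second lost its call without N440K replicate 3 (adjusted p = 0.102), WT replicate 1 (0.0563) or WT replicate 2 (0.0772). DESeq2 called the Glis3 and Sox6 intervals but not those of Zfhx3 and Cacna1e, and limma voom did not call the Cacna1e pair. The intervals of Glis3, Sox6, Zfhx3 and Cacna1e passed the filter on low counts through the WT libraries.

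Another 5 of the named losses were smaller. The intervals lay in Ttc28, a gene of a tetratricopeptide repeat protein, Ptprn2, a gene of a phosphatase-like protein of secretory granules, Magi2, a gene of a synaptic scaffold, Thsd7b, a gene of a thrombospondin-domain protein, and Pde4d. They averaged 5.22, 9.93, 10.5, 4.03 and 8.81 CPM in N440K and 13.5, 21, 21.8, 11.4 and 18.3 CPM in WT libraries in that order. The log2 fold changes were -1.38, -1.05, -1.04, -1.45 and -1.08, with edgeR adjusted p of 0.0132, 0.0182, 0.0211, 0.0235 and 0.0254. The groups did not overlap at any of the 5. DESeq2 called none of them (adjusted p between 0.353 and 0.496), and limma voom called the Magi2 interval (0.0356) and not the other 4. The Ttc28 call was lost without N440K replicate 1 (adjusted p = 0.0898), WT replicate 2 (0.0539) or WT replicate 3 (0.083), and the Ptprn2 call without N440K replicate 1 (0.0878) or 2 (0.0985) or WT replicate 1 (0.0545) or 3 (0.154). The Magi2 call was lost without N440K replicate 2 (0.0798) or 3 (0.203) or WT replicate 1 (0.0732) or 3 (0.107). The Thsd7b call was lost without N440K replicate 1 (0.127) or 2 (0.0903) or WT replicate 1 (0.0722) or 2 (0.0987), and the Pde4d call without N440K replicate 1 (0.0526), 2 (0.0603) or 3 (0.171) or WT replicate 2 (0.262).

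**Figure D3:**
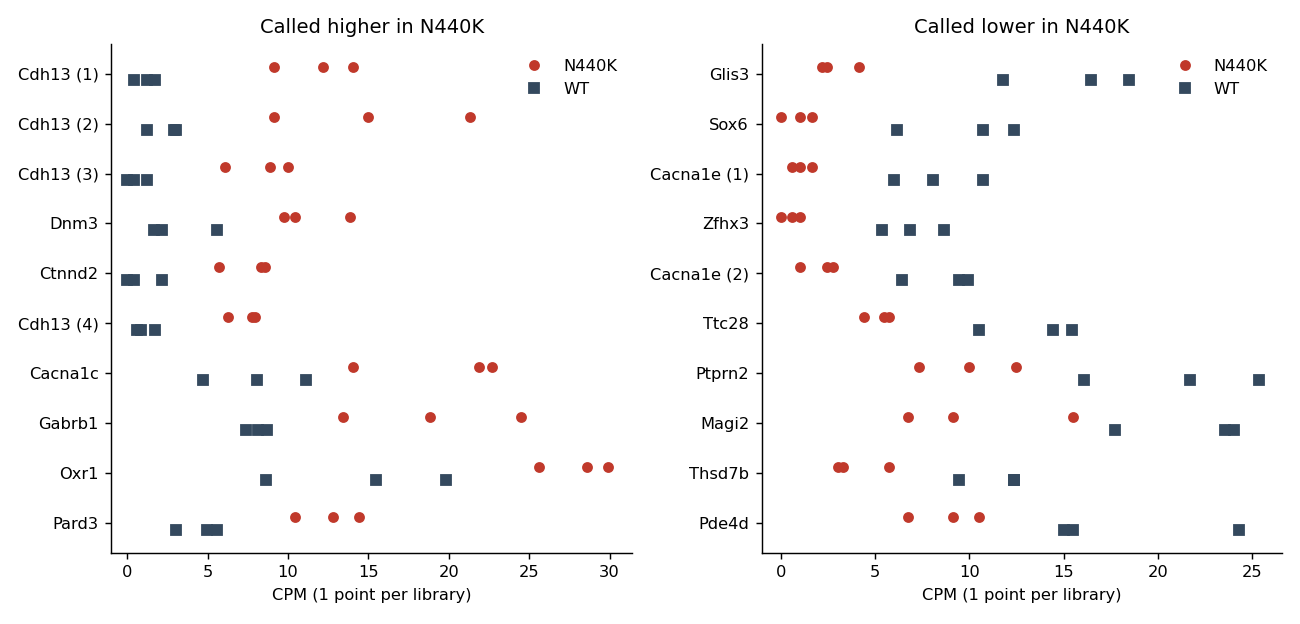
CPM of the 10 intervals with the smallest p in each direction, 1 point per library, with N440K as red circles above WT as dark squares; a number in brackets tells intervals of the same gene apart. At each of the 20 intervals the 3 N440K points lie to one side of the 3 WT points, and the Cdh13 intervals have WT values of 3.00 CPM or less.

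When counts were summed over the intervals of each gene, both gains and losses were found among the very long genes. Of the 147 genes, 28 passed (19%), 14 higher and 14 lower in N440K, against a background of 5.29% (2.23% higher and 3.07% lower) over all 4401 genes tested with the same sums (edgeR quasi-likelihood test, adjusted p under 0.05 over the 4401). The share was above that of genes under 400 kb at each number of intervals, at 18.6% against 3.10% with 1 or 2 intervals, 18.9% against 6.10% with 3 to 5, 28.0% against 8.21% with 6 to 10 and 14.3% against 7.18% with more. The difference in shares was not tested. The sums hold only intervals that passed the filter on low counts, some of them through 1 genotype. Calls, shares and common signs of the sums may in part be set by that selection, which was not tested. DESeq2 called 14 of the 147 (background 2.2%) and limma voom 27 (background 5.27%). Without N440K replicate 3, 16 were called. The groups did not overlap at 26 of the 28, the exceptions being Nav2 and Chrm3, which encodes the muscarinic M3 receptor. The same share over all 4401 genes is not given, and separation among called genes is no separate support for the calls.

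In several genes with higher sums, most or all intervals had a positive log2 fold change. In Pard3, 17 of 18 intervals were positive, 2 of them called, and the sums were 274.6, 222.1 and 282.1 CPM in N440K and 195.2, 185.7 and 187.6 CPM in WT libraries. The N440K libraries were all above the WT libraries, with N440K replicate 2 the closest (1.39-fold; edgeR adjusted p = 0.000324). In Cacna1c all 6 intervals were positive, and the sums were 132.9, 101.9 and 137.9 CPM in N440K and 72.5, 88.5 and 77.3 CPM in WT libraries (1.57-fold; edgeR adjusted p = 0.00081). In Dnm3, 6 of 7 were positive and the sums averaged 83.3 ± 3.6 CPM in N440K and 50.5 ± 8.81 CPM in WT, and in Oxr1 9 of 10 were positive with 157.9 ± 9.12 CPM in N440K and 110.7 ± 17.8 CPM in WT (SD, n = 3 each; edgeR adjusted p = 0.000997 and 0.00147). Kcnma1, the gene of a calcium-activated potassium channel, had no interval called on its own, but its pair summed to 30.4, 25 and 34.4 CPM in N440K and 17.3, 10.3 and 18 CPM in WT libraries. These groups were apart, and the sum was 2.03-fold higher in N440K (edgeR adjusted p = 0.0035). Ctnnd2 was 1.91-fold higher over 3 intervals (adjusted p = 0.00388). Gabrb1, with 1 interval, passed as a gene (adjusted p = 0.00364), and not without N440K replicate 3 (0.061). The other genes with higher sums were Rims1, a gene of the presynaptic active zone, Ank3, the ankyrin-G gene, Dock2, the gene of a Rac activator of lymphocytes, Ryr3, a ryanodine receptor gene, Nav2 and Chrm3, with folds of 1.98, 1.69, 1.42, 1.95, 1.21 and 1.36.

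In several genes with lower sums, most or all intervals had a negative one. In Ttc28, 22 of 25 intervals were negative, and the sums were 224.8, 256.9 and 200.9 CPM in N440K and 307.9, 286.5 and 317.2 CPM in WT libraries. The groups did not overlap (1.32-fold lower; edgeR adjusted p = 0.0035), and without N440K replicate 3, the lowest, the call was lost (0.0584). In Pde10a, 25 of 26 intervals were negative and none was called on its own. Its sums were 321.7, 267.2 and 332.1 CPM in N440K and 399.0, 363.9 and 376.4 CPM in WT libraries, a 1.22-fold difference (adjusted p = 0.00782) that did not pass without WT replicate 1 (0.0573). In Ncald, a gene of a neuronal calcium sensor, 22 of 24 were negative (1.26-fold lower, adjusted p = 0.0119). Sox6 had 6 of 6 negative and averaged 31.1 ± 9.07 CPM in N440K and 55.8 ± 5.46 CPM in WT, and Glis3 had 3 of 3 negative and averaged 7.07 ± 3.99 CPM in N440K and 29.5 ± 7.53 CPM in WT (SD, n = 3 each; adjusted p = 0.0035 and 1.79e-05). The Glis3 intervals passed the filter on low counts through the WT libraries. Arhgap24, which encodes a GTPase-activating protein for Rac, had no interval called on its own. Its 3 intervals summed to 32.1, 26.8 and 33.8 CPM in N440K and 53.3, 44.0 and 67.0 CPM in WT libraries, which did not overlap (1.74-fold lower, adjusted p = 0.0035). The sums of Dlgap1, a postsynaptic scaffold gene, Ptprn2 and St6galnac3, a sialyltransferase gene, were 1.73-fold, 1.85-fold and 2.13-fold lower (adjusted p = 0.00709, 0.00776 and 0.0114). Dlgap1 and St6galnac3 lost the call without N440K replicate 3 (0.0942 and 0.113) and Ptprn2 without WT replicate 3 (0.0585). DESeq2 called neither Ptprn2 nor St6galnac3 (adjusted p = 0.0763 and 0.116). The 5 others with lower sums were Slc14a2, Lrmda, Magi2, Hivep3 and Thsd7b, with folds of 1.48, 1.68, 1.42, 1.19 and 1.86.

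**Figure D4:**
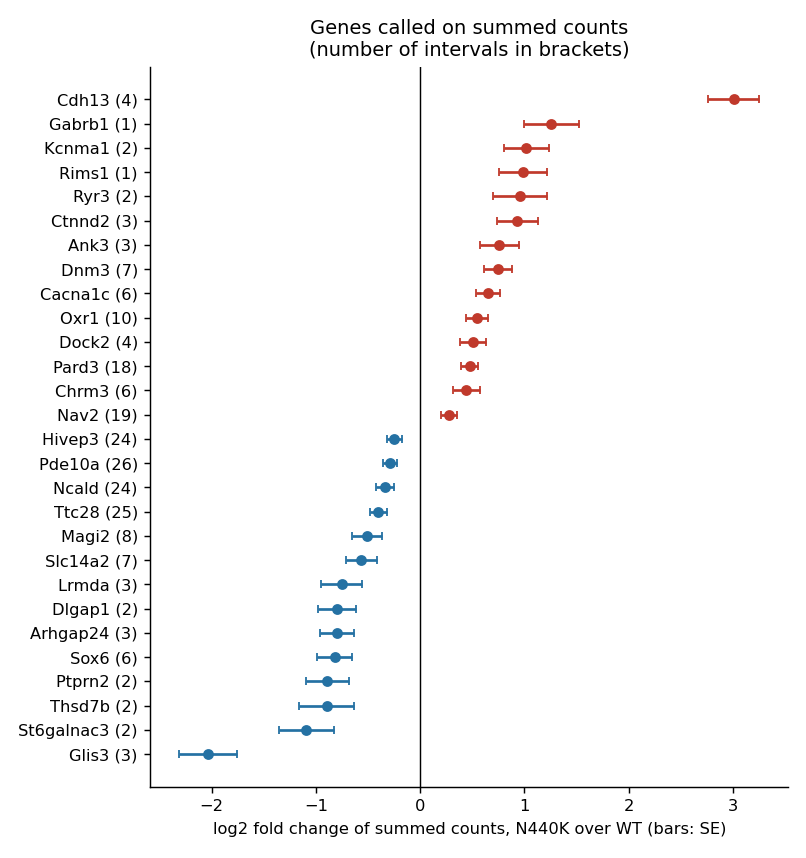
Log2 fold change (N440K over WT) of the counts summed over the intervals of each of the 28 genes called on sums, with bars of 1 SE and the number of intervals in brackets; red is higher and blue lower in N440K. Cdh13, at 3.01, and Glis3, at -2.03, stand apart from the others, and the 5 genes with the most intervals, Pde10a, Ttc28, Hivep3, Ncald and Nav2, lie nearest to 0.

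Over every interval of the count table, filtered or not, 87 very long genes held 10 or more. In 5 of them all intervals had the same sign. All were positive in Cdh13 (18) and Chrm3 (16), and all were negative in Sox6 (20), Arhgap24 (14) and Magi2 (13). For Sox6 the pattern went past the gene, since 44 of 50 intervals within 1000 kb of its lower-coordinate end were negative too, with a median log2 fold change of -0.92 and 7 called. Within 1000 kb of its higher-coordinate end 26 of 40 were negative, with a median of -0.39 and 2 called. For Arhgap24, 7 of 9 intervals within 1000 kb of the lower-coordinate end were negative, with a median of -0.49, and 36 of 53 within 1000 kb of the higher-coordinate end were positive, with a median of 0.21. Chrm3 and Magi2 had intervals within 1000 kb of 1 end only. Of these, 26 of 45 were positive at Chrm3 (median 0.04) and 36 of 58 at Magi2 (median 0.05). Near-uniform genes included Glis3 with 10 of 11 negative, Pde10a with 36 of 39 negative, Ttc28 with 29 of 34 negative and Oxr1 with 11 of 12 positive. Intervals of 1 gene share libraries and chromatin and are not independent. Many of those counted here were below the filter on low counts, 11 of the 14 in Arhgap24 for example. Whether they were listed through 1 genotype alone was not tested, so a common sign may in part be set by how intervals were selected.

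**Figure D5:**
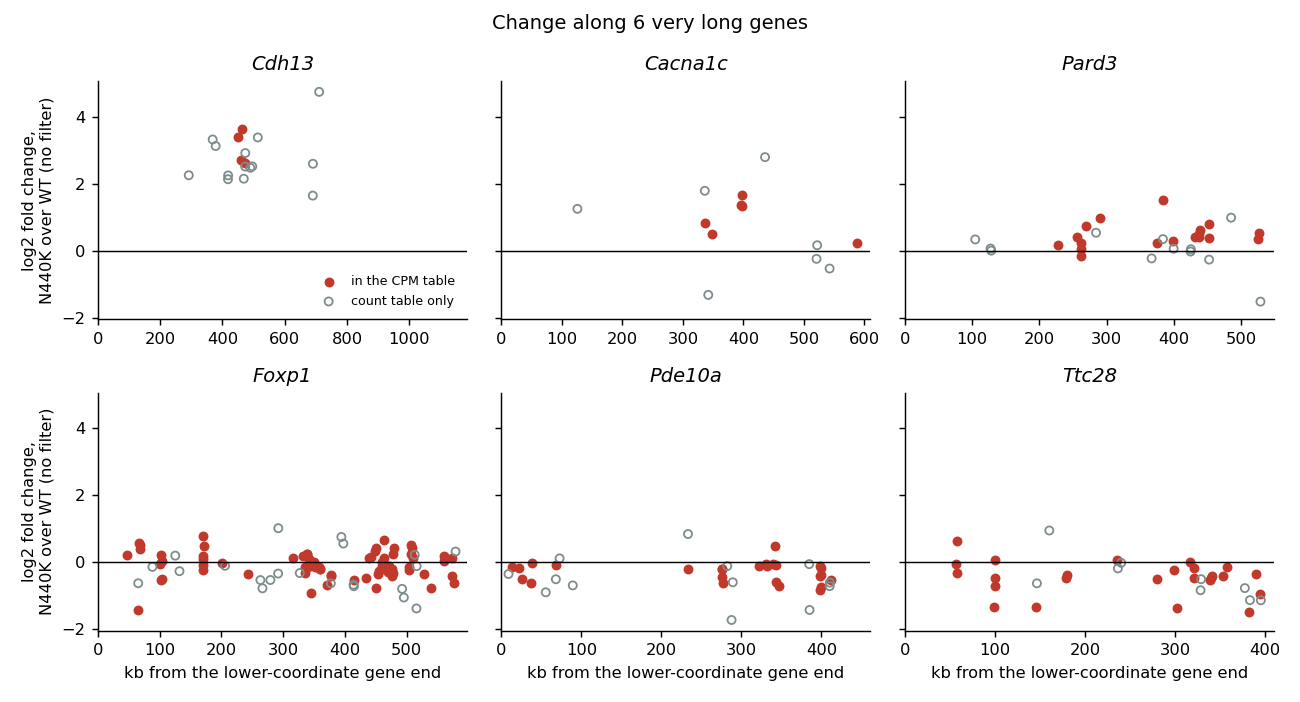
Log2 fold change (N440K over WT, no filter on low counts) of each count-table interval along 6 genes, against the distance of its midpoint from the gene end with the lower coordinate; filled points passed the authors' filter and open ones did not. All 18 Cdh13 points lie between 1.65 and 4.74, most Pde10a and Ttc28 points lie below 0, and Foxp1 points scatter on both sides of 0.

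The genes with the most Bcl11b intervals did not pass. Foxp1 summed to 871.0, 870.7 and 905.2 CPM in N440K and 941.8, 860.4 and 982.5 CPM in WT libraries, with 30 of its 69 intervals positive. The groups overlapped, and the log2 fold change was -0.05 ± 0.05 (SE; edgeR adjusted p = 0.605), with a range of -0.09 to -0.03 over the fits that left out 1 library. The interval of Foxp1 with the smallest p, at chr6:98989940-98990140, had 2.77, 3.05 and 2.08 CPM in N440K and 9.29, 7.0 and 6.01 CPM in WT libraries. These did not overlap, but the interval did not pass (edgeR adjusted p = 0.0975). Pde4d, Nfia, Wwox and Snx29 had log2 fold changes of -0.04 ± 0.05, 0.14 ± 0.05, 0.13 ± 0.06 and -0.06 ± 0.08 (SE), and Arhgap26, Cacna1d and Maml3 of 0.01 ± 0.07, -0.06 ± 0.06 and 0.02 ± 0.06, with edgeR adjusted p between 0.131 and 0.948. In Nfia the sums were 694.9, 683.4 and 704.2 CPM in N440K and 613.4, 633.6 and 669.6 CPM in WT libraries, so all N440K values were above all WT values without passing. The intervals with the smallest p in Nfia, Wwox and Snx29 did not pass (edgeR adjusted p = 0.152, 0.138 and 0.212). Most calls came from genes with few intervals. Of the 202 intervals in genes with 1 to 5, 17 were called (8.42%), against 9 of 180 (5.0%) in genes with 6 to 10, 2 of 312 (0.641%) in genes with 11 to 20 and 3 of 546 (0.549%) in genes with 21 to 69. Over all tested intervals the share was 1.14%, which the last 2 classes do not exceed, and differences between the classes were not tested.

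The host genes were grouped by what they encode, and the shares below stand against 1.14% of all tested intervals and 5.29% of all genes tested. Of 79 intervals in 10 ion channel and transporter genes, 7 were called (8.86%), 5 higher and 2 lower, and on sums Cacna1c, Chrm3, Gabrb1, Kcnma1 and Ryr3 passed, all higher in N440K. Chrm3, which stands in this list, encodes a G protein-coupled receptor and no channel, and 1 of the 5 higher intervals was in it. Another 3 of the 5 were close neighbours in Cacna1c, and the 2 lower ones were the Cacna1e pair. Among adhesion and synapse genes 7 of 96 intervals in 19 genes were called (7.29%), 5 higher and 2 lower. Of the 5 higher ones, 4 were the Cdh13 intervals. The shares of these lists thus rest on few genes, and intervals of 1 gene are not independent. On sums Cdh13, Ctnnd2 and Nav2 were higher and Dlgap1 and Ptprn2 lower. The transcription and chromatin regulators, with 225 intervals in 13 genes, had 2 calls (0.889%), both lower, and Sox6 was the gene called on sums. Genes of signalling, polarity and the cytoskeleton had 4 calls among 250 intervals in 24 genes (1.6%), 2 in each direction, with Dock2 and Pard3 higher and Magi2 lower on sums. Genes at known large common fragile sites, which break under replication stress, had 1 call among 79 intervals in 8 genes (1.27%), in Magi2. The interval shares of these 3 lists lie near the 1.14%, while all intervals in very long genes had 2.5%. On sums, 1 of 13 regulators, 3 of 24 signalling genes and 1 of 8 fragile site genes were called, against 5.29% of all genes and 19% of the very long genes. Differences between lists were not tested. The median log2 fold change was 0.02 for the channel list, 0.06 for adhesion, -0.05 for regulators, -0.06 for signalling and -0.07 for fragile sites, against 0.00 over all tested intervals. In these lists the genes with the most intervals did not pass, apart from Nav2. Fstl4, a follistatin-like gene, Slc9a9, the gene of an endosomal sodium-proton exchanger, and Rora had log2 fold changes of 0.03 ± 0.06, 0.16 ± 0.07 and -0.12 ± 0.07 (SE; edgeR adjusted p = 0.879, 0.226 and 0.424). Nav2 summed to 296.2, 277.6 and 302.4 CPM in N440K and 219.3, 228.5 and 281.6 CPM in WT libraries, where WT replicate 3 reached the N440K range. Its log2 fold change of 0.28 ± 0.08 passed (edgeR adjusted p = 0.0258), and not without N440K replicate 1 (0.0599), N440K replicate 3 (0.0925), WT replicate 1 (0.158) or WT replicate 2 (0.0933). The Nav2 call was also lost with DESeq2 (0.104) and when intervals below the median CPM were left out.

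As a share of all counts in tested intervals, the 1240 took 1.58%, 1.45% and 1.59% in the N440K libraries and 1.59%, 1.54% and 1.65% in the WT libraries. The ranges overlapped, and the difference of -0.05 percentage points was not significant (exact permutation test, two-sided, p = 0.4, where 3 against 3 cannot go below 0.1). Of the 174 intervals within 5 kb of an end of another gene 1 was called (0.575%), and of the 1066 farther away 30 (2.81%), against 1.14% of all tested intervals; this difference was not tested. Near the limits of the rule, the shortest genes included were Fam189a1, Dst and Dock4, of 400.4 to 400.9 kb, with log2 fold changes of their sums of -0.18, 0.07 and -0.09. The longest left out were Adk, Grik1 and Itpr2, of 394.0 to 396.0 kb, with 0.16, -0.51 and 0.01. Intervals just inside the 5 kb distance lay in Fbxl17, Hivep3 and Nfia, with log2 fold changes of -0.10, -0.43 and 0.22, and those just outside in Nfia, Fbxl17 and St6galnac3, with 0.43, -0.34 and -1.34.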

How the data were processed

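Per the labels' protocols, cross-linked thymocyte chromatin was precipitated with a Bcl11b antibody and sequenced. The tools in the submitters' processing notes are Bowtie2 2.3.5 and SAMtools 1.9, beside fastp 0.20.0, bedtools, MACS2 and edgeR 3.38.2, and the build is mm10, with no word on how peaks were called. The authors deposited whole-number read counts for 93708 intervals of 201 bp in 6 ChIP libraries. They also deposited CPM values for 63098 of these, which equalled CPM recomputed here with TMM scaling and filterByExpr.

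Counts were tested with edgeR 4.0.16 (quasi-likelihood, filterByExpr, TMM, genotype as the only term, R 4.3.3) over all 63098 intervals, and over sums per coding gene of any length (4401 genes). A fold change is fitted, N440K over WT. Tested on simulated data, the gene test recovered 38 of 50 genes changed 2-fold, with 11 false calls among 171. No library was a copy of another, since counts of libraries differed by more than sampling noise. Alternatives were DESeq2 1.42.0, limma 3.58.1 (voom), other scalings (loess span 0.3), filters, limits and thresholds, a replicate block and leaving out each library. Reading every count-table interval was added after seeing the data.

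Named intervals were 10 per direction by smallest p, the 5 strongest and the one with the smallest p in each of the 5 genes with most intervals. Named genes were the 8 with most intervals, up to 8 called in each direction and 2 per list (5 lists, 265 genes); the other called genes and genes in counts of 5 or fewer were named after their values were seen. The rule, the lists and the tests were chosen with earlier results of these data known. Start windows came from RefSeq and lacked chromosome 18 and some genes. Errors are SD over libraries or SE of the fit. No genome was used.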

Additional observations from a re-analysis of the deposited data

How the results depend on the processing

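The number of intervals called (31) fell to 5 with DESeq2, 15 with limma voom, 12 at a threshold of 0.01 and 8 among those with at least the median CPM. It was 51 with a gene length limit of 300 kb, 20 with 500 kb, 55 when all 2555 count-table intervals were read with no filter (chosen after seeing the data) and 16 to 23 when 1 library was left out. The limits of 300 and 500 kb change how many intervals are read. DESeq2 called 0.403% of the 1240 against 0.0951% of all tested intervals, and limma voom 1.21% against 0.504%. With no filter 2.15% of the 2555 were called, against 0.941% of all counted intervals. The number of genes called on sums (28) fell to 14 with DESeq2, 16 at a threshold of 0.01, 12 with at least the median CPM and 17 with 500 kb, and was 16 to 29 when 1 library was left out. Fewer features are tested when those below the median CPM are left out, and fewer samples when a library is left out. A length limit changes only which intervals and genes of the same fit are read. Why the counts differ between settings was not tested. For the other thresholds, limits, scalings, fits without 1 library and the replicate block, the share called over all features is not given. Those counts therefore do not compare very long genes with others. Other scalings gave 31 to 33 intervals and 27 or 28 genes. With loess offsets 19 of the called intervals were higher and 12 lower, against 17 and 14, and the split under the other scalings stayed within 10 percentage points.

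Replicate numbers were not shown to pair the libraries: libraries sharing a number had deviations that correlated at -0.004, 0.028 and 0.058. With the replicate number as a block, 30 intervals and 32 genes were called.

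Among named intervals and genes no called value changed direction. Of those not called, log2 fold changes near 0 turned over in 13 cases. With loess offsets the strongest Syne1 interval had -0.0031, and the sums of Arhgap26 and Maml3 -0.0078 and -0.0048. At or above the median CPM the Arhgap26 sum had -0.0052 and the Fstl4 sum -0.058. With no filter the Snx29 sum had 0.034. When 1 library was left out, the strongest Pde4d and Psd3 intervals ranged between -0.125 and 0.032 and between -0.340 and 0.049, positive without N440K replicate 2. The Snx29 sum ranged between -0.146 and 0.078 (positive without WT replicate 3), the Arhgap26 sum between -0.037 and 0.061 (negative without N440K replicate 2 and without WT replicate 1) and the Maml3 sum between -0.016 and 0.053 (negative without N440K replicate 2 and without WT replicate 3). Calls were lost by 18 of the named intervals and genes with DESeq2, by 7 with limma voom and by 10 at an adjusted p of 0.01. At 1609762 to 2400250 counts a library, called intervals are weak, and the counts behind them are small.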
